A study of Zea mays with 6 samples.

Results

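The maize genes opr7 (GRMZM2G148281) and opr8 (GRMZM2G082087) are a pair of duplicate genes for 12-oxo-phytodienoic acid (OPDA) reductases. They were taken by gene model identifier, as 2 of the 39625 gene models in the deposited table, and both were among the 8615 gene models tested. RNA sequencing gave their transcript levels in ripe pollen of the inbred line B73. The 3 control libraries came from plants kept at 25 °C in the light and 21 °C in the dark. The 3 heat libraries came from plants moved, at the tetrad stage of pollen development, to a chamber at 35 °C in the light and 25 °C in the dark for 48 h. Humidity was 60% in both groups, no transgene or mutant allele was involved, and all plants then stayed in the greenhouse until the pollen was ripe. None of the pollen was sampled during the heat itself.

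Jasmonate is a plant hormone made from linolenic acid. A lipoxygenase, an allene oxide synthase and an allene oxide cyclase make OPDA in the plastid, an OPDA reductase acts on it in the peroxisome, and rounds of beta-oxidation finish the hormone. In maize, plants that lack both opr7 and opr8 have very little jasmonate and form female flowers in the tassel, so the pair is known for its part in male flower development. The hormone, joined to isoleucine, is read by a receptor that removes JAZ repressors of the TIFY family and so frees MYC transcription factors.

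After the heat treatment opr7 transcript rose in ripe pollen, by a factor of 1.4 in mean TPM, and opr8 did not pass the test. The call of opr7 was lost when sequencing lane, which set 2 of the 3 heat libraries apart from the controls, was a covariate (adjusted p = 0.0695, limma). The heat difference in that fit is the one between heat library 3 and the controls. TPM, the unit of the deposited table, takes a gene's reads per length and brings all libraries to 1 common total. The opr7 level was 18.8, 17.0 and 21.0 TPM in control libraries 1, 2 and 3, and 25.7, 27.3 and 26.6 TPM in heat libraries 1, 2 and 3. Every heat library lay above every control library, as for 23.2% of the tested genes. The means were 18.9 ± 2.03 TPM in control and 26.5 ± 0.767 TPM in heat (SD, n = 3 each). The difference on the log2(TPM + 1) scale was 0.47 (SE 0.10, 95% interval 0.27 to 0.68, adjusted p = 0.00389, limma with Benjamini-Hochberg adjustment over all tested genes). By the same test 20.2% of the tested genes passed in either direction, and 13.0% passed as higher, so a call of this kind was common. By size, opr7 was number 628 of the 1123 genes called higher.

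The opr8 level was 7.31, 8.27 and 7.51 TPM in the controls and 10.2, 8.33 and 8.85 TPM in the heat libraries, in the same order. The lowest heat library and the highest control library were almost at the same level, so the groups only just failed to overlap. Groups did not overlap, with heat higher, for 23.2% of the tested genes. The means were 7.70 ± 0.508 TPM in control and 9.13 ± 0.964 TPM in heat (SD, n = 3 each). The difference on the log2(TPM + 1) scale was 0.22 (SE 0.11, 95% interval -0.02 to 0.46, adjusted p = 0.196; limma's unadjusted p = 0.0708). The interval holds 0 and overlaps that of opr7.

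**Figure D1:**
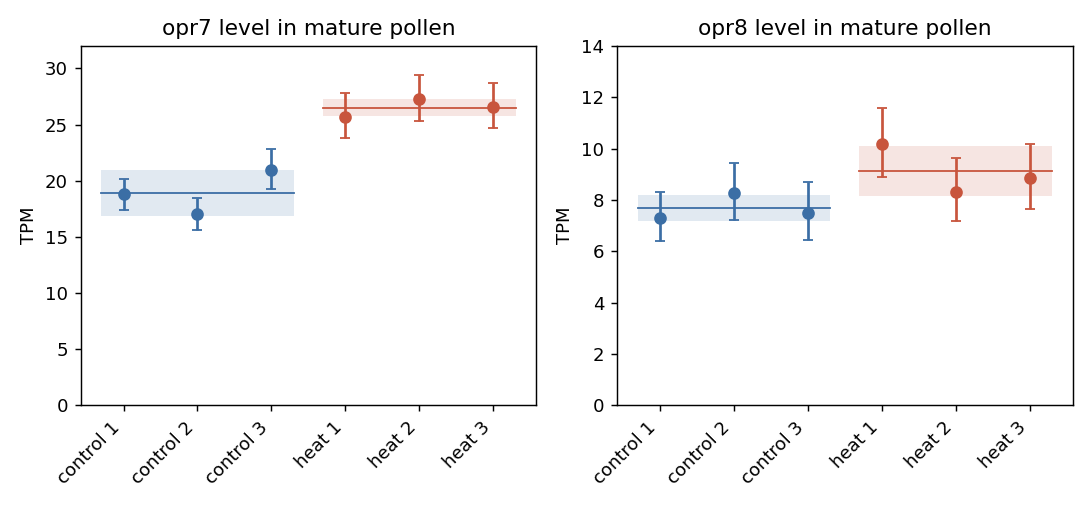
TPM of opr7 (left) and opr8 (right) in each of the 6 libraries, control in blue and heat in red. Points are libraries, bars are the 95% counting interval of the library's reads, lines are group means and bands are ± 1 SD (n = 3). For opr7 the heat libraries, at 25.7 to 27.3 TPM, stand clear of the controls, at 17.0 to 21.0 TPM; for opr8 most counting intervals overlap between the groups.

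The reads behind these levels could be rebuilt from the TPM values. For opr7 they numbered 701, 525 and 570 in the controls and 657, 696 and 675 in the heat libraries, on a gene model of 2109 bases. For opr8 they numbered 235, 220 and 175 in the controls and 224, 183 and 193 in the heat libraries, on 1814 bases. The library totals ran from 19086616 to 28640667 reads, and the controls were all sequenced more deeply than the heat libraries, so raw reads of different libraries do not compare as levels.

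Counting alone would give opr8 a coefficient of variation of 6.96% in control and 7.10% in heat. The observed values were 6.60% and 10.6%, so counting error was of the same order as the spread between libraries. For opr7 counting would give 4.12% in control and 3.85% in heat, against observed values of 10.7% and 2.89%. The controls of opr7 thus varied more than counting gives, while its heat libraries did not. Intervals and coefficients of this kind cover counting error alone.

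Sequencing lanes were not balanced. The 3 controls and heat library 3 ran on the same 3 lanes, and heat libraries 1 and 2 on 2 other lanes, which held no control. With lane set as a covariate, the log2 difference of opr7 was 0.48 with a larger error (SE 0.14), and it no longer passed. Since heat libraries 1 and 2 share no lane with a control, that fit compares heat library 3 with the controls. The fit within the shared lanes makes the same comparison and gave the same differences, 0.48 for opr7 and 0.18 for opr8. The fits are thus not separate checks, and the heat difference of both rests on 1 heat library. The shared-lane fit takes its spread from the controls. With the lane as a covariate 7.59% of the tested genes passed.

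**Figure D2:**
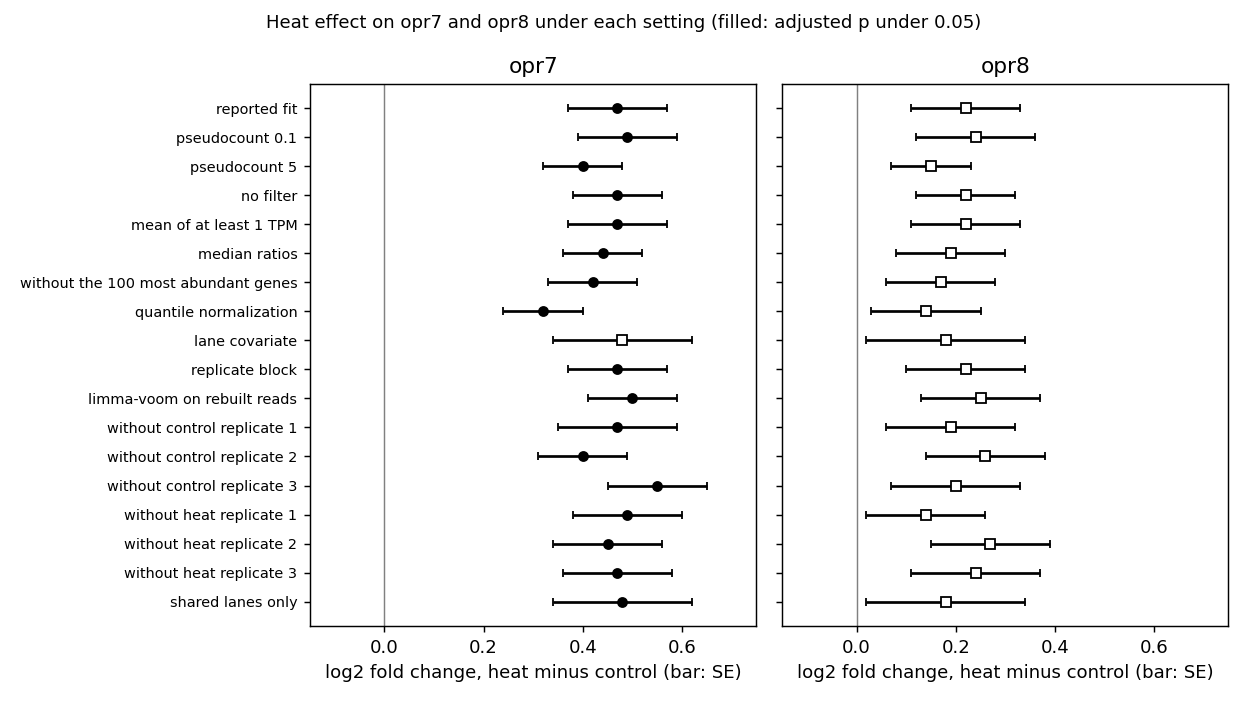
The log2 difference between heat and control for opr7 (left) and opr8 (right) in the reported fit and in 17 alternatives, with bars of ± 1 SE. Filled circles passed an adjusted p of 0.05 and open squares did not. The opr7 values lie between 0.32 and 0.55 and are filled except with the lane as a covariate; the opr8 values lie between 0.14 and 0.27 and are all open.

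Within the pair, opr7 was the more abundant transcript in all 6 libraries. Per length, the ratio of opr7 to opr8 was 2.57, 2.05 and 2.80 in the controls and 2.52, 3.27 and 3.01 in the heat libraries. The groups overlapped in this ratio. The ratio averaged 2.47 ± 0.383 in control and 2.93 ± 0.380 in heat (SD, n = 3 each), a log2 difference of 0.25 (SE 0.17, exact two-sided permutation p = 0.3). It was 0.12 without control library 2. The smallest p that 3 libraries against 3 allow is 0.1, so this test could not have passed 0.05, and whether heat changed opr7 and opr8 unequally is not settled by it. The share of opr7 in the summed level of the pair was 71.0 ± 3.34% in control and 74.4 ± 2.55% in heat (SD, n = 3 each).

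The genes of this pair are known as close duplicates, and the sources used here do not say what was done with reads that match both. How reads were divided between them is uncertain to that extent, and the sum depends less on that division. The summed level of opr7 and opr8 was 26.1, 25.3 and 28.5 TPM in the controls and 35.9, 35.6 and 35.5 TPM in the heat libraries. All heat libraries were above all controls, and they differed little among themselves. The means were 26.6 ± 1.71 and 35.7 ± 0.240 TPM (SD, n = 3 each), a log2 difference of 0.42 (SE 0.05). In heat the SD of the sum was below that of opr7 (0.767 TPM) and that of opr8 (0.964 TPM). Counting error was not worked out for the sum. The exact two-sided permutation test gave p = 0.1, the smallest value that 3 libraries against 3 allow, so this test cannot pass 0.05 here.

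**Figure D3:**
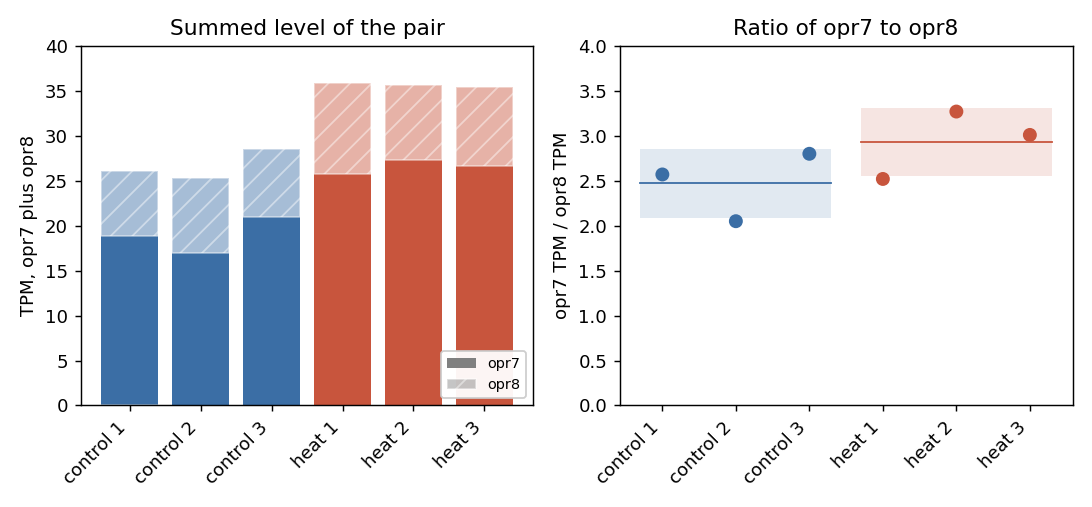
Left, the summed level of the pair in TPM in each library, with opr7 as the solid and opr8 as the hatched part of each bar. Right, the ratio of the opr7 to the opr8 level, with group means as lines and ± 1 SD as bands (n = 3). The sum is 35.5 to 35.9 TPM in heat against 25.3 to 28.5 TPM in control, while the ratios of the groups overlap.

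Other members of the reductase family gave little or no signal in this pollen. The RefSeq name table holds 8 opr genes, 7 of which could be matched to a gene model of the deposited table; opr4 was not analysed here. The closest in level was opr5 (GRMZM2G087192), with 0.424, 0.473 and 0.225 TPM in the controls and 0.143, 0.382 and 0.144 TPM in the heat libraries, which overlap. It was under the filter of 1 TPM in at least 3 libraries and was not tested. For opr1 (GRMZM2G106303) and opr2 (GRMZM2G000236) a single read each was rebuilt, in control library 1, which is the smallest count that fits the value. No read was found for opr3 (GRMZM2G156712) or opr6 (GRMZM2G068947), which allows up to 3 of the 131231651 reads of the 6 libraries together. In the order of levels opr7 came first, opr8 next and opr5 far behind. Among all tested genes the control level of opr7 stood at percentile 77.9 and that of opr8 at percentile 63.1.

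The steps before OPDA were examined next, in the order of the pathway. Plastid desaturases make linolenic acid, and fad7 (GRMZM2G128971) and fad8 (GRMZM2G074401) of that class both fell, where 7.15% of all tested genes fell. The list also sought fad3, which was not found by name. The fad8 level was 14.5, 12.9 and 14.2 TPM in the controls and 11.6, 9.23 and 9.81 TPM in the heat libraries (log2 difference -0.42, SE 0.11, adjusted p = 0.0156, limma). The fad7 level went from 1.73 ± 0.0352 to 0.753 ± 0.268 TPM (SD, n = 3 each; log2 difference -0.65, SE 0.14, adjusted p = 0.00515, limma). The size of the fad7 difference depended on the scale: a pseudocount of 5 gave -0.23, one of 0.1 gave -1.15 and limma-voom gave -1.24. With the lane as a covariate neither passed, at log2 differences of -0.66 for fad7 and -0.46 for fad8 with larger errors (SE 0.20 and 0.16). The fad8 call was lost there (adjusted p = 0.113, limma) and within the shared lanes, which make the same comparison. That call was also lost without control library 1 or 3, without heat library 2 or 3 and with no filter (adjusted p from 0.0513 to 0.072, limma). Another gene of this list, dad1 (GRMZM5G847530), was matched by symbol alone, which does not show that it encodes a lipase of this pathway; it did not pass (adjusted p = 0.286, limma).

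Of 11 lipoxygenase gene models, 10 stayed under 1 TPM in every library. The exception was lox4 (GRMZM2G109056), at 2.76 ± 0.231 TPM in the controls and 3.30 ± 0.428 TPM after heat (SD, n = 3 each; adjusted p = 0.335, limma). It is placed in maize among lipoxygenases that oxygenate linolenic acid at another carbon than the jasmonate route uses. Of the lipoxygenases known for jasmonate in maize, lox10 (GRMZM2G015419) reached at most 0.0627 TPM. The tassel sex gene ts1 (GRMZM2G104843), which encodes LOX8, had 0.0323, 0.0195 and 0.0222 TPM in the controls and was at 0 in the heat libraries. These control values rest on 2, 1 and 1 reads, and a count of 0 allows up to 3 reads in a heat library, so no difference could be seen at this depth. The low gene lox12 (GRMZM2G106748) lay at 0.333 to 0.638 TPM in the controls and 0.135 to 0.218 TPM in the heat libraries. These values rest on 68 reads over all controls and 21 over all heat libraries, and the gene was not tested.

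The 4 allene oxide synthase gene models matched by name, aos1 to aos4, had 2 rebuilt reads between them in all 6 libraries. They were 1 in a control and 1 in a heat library, the smallest counts that fit the values. Transcript for the next step was found. The cyclase gene aoc2 (GRMZM2G415793) was at 3.25, 3.03 and 3.97 TPM in the controls and at 4.87, 5.78 and 5.03 TPM in the heat libraries. It rose (log2 difference 0.50, SE 0.13, adjusted p = 0.0140, limma), with every heat library above every control, as for 23.2% of the tested genes. Its call was lost with the lane as a covariate (log2 difference 0.46, SE 0.19, adjusted p = 0.180) and within the shared lanes, which make the same comparison. That call was also lost without control library 1 (adjusted p = 0.058, limma) and without heat library 2 (0.0558). The other cyclase gene, aoc1 (GRMZM2G077316), was at 0.947 ± 0.143 TPM in the controls and 1.01 ± 0.111 TPM after heat (SD, n = 3 each; adjusted p = 0.844, limma).

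**Figure D4:**
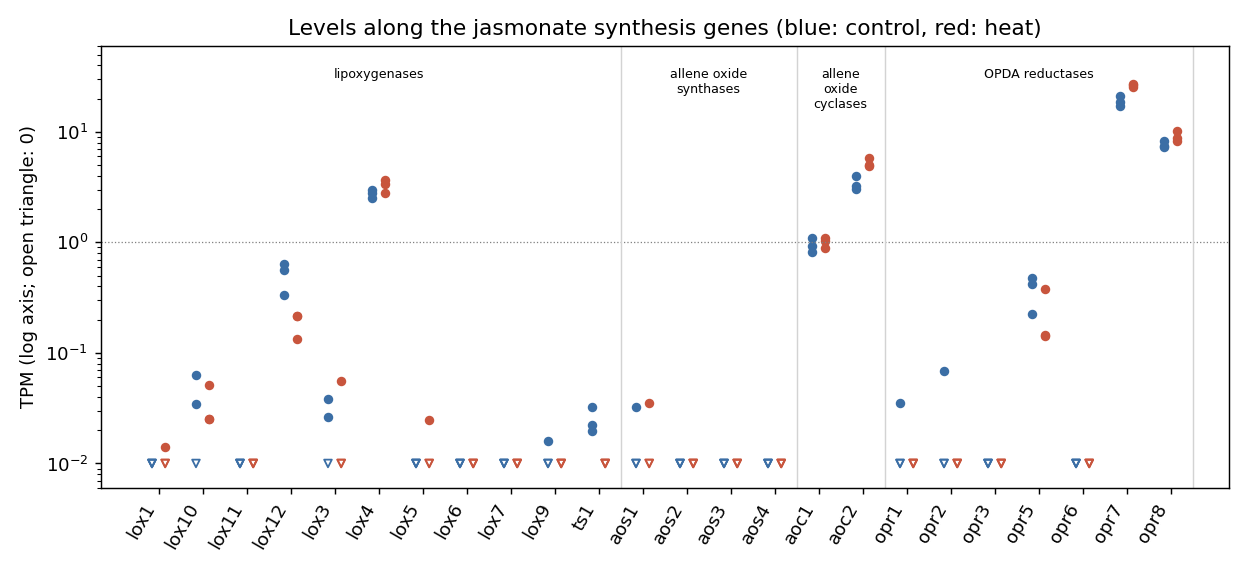
TPM on a log axis for each gene model of the lipoxygenases, allene oxide synthases, allene oxide cyclases and OPDA reductases, with control libraries in blue and heat libraries in red. Open triangles mark a value of 0 and the dotted line marks 1 TPM. The pair opr7 and opr8 stands highest, lox4, aoc1 and aoc2 follow, and the allene oxide synthases lie at or near 0.

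Beyond OPDA, the name patterns found few genes. The beta-oxidation pattern matched 3 gene models, whose synonyms (ACO20, ACO31 and aconitase2) are those of other enzymes, so they give no information on that step; all stayed under 1 TPM. No gene was matched for amino acid conjugation or for the receptor. The catabolism gene ts5 (GRMZM2G177668) and the sex determination gene ts2 (GRMZM2G455809) stayed under 0.1 TPM.

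Among the genes of jasmonate response, the MYC gene myc7 (GRMZM2G001930, also named MYC2a) rose from 10.8, 11.2 and 12.0 TPM in the controls to 14.4, 16.9 and 14.1 TPM in the heat libraries. Its log2 difference was 0.38 (SE 0.10, adjusted p = 0.0189, limma). Its call was lost with the lane as a covariate (log2 difference 0.29, SE 0.15, adjusted p = 0.291) and within the shared lanes, which make the same comparison. That call was also lost with no filter (adjusted p = 0.0562, limma), without control library 1 (0.0811) and without heat library 2 (0.0748). Of 13 tested genes of the TIFY family, which includes the JAZ repressors and other proteins, 5 rose, 0 fell and 8 did not pass (limma), where 13.0% of all tested genes rose and 7.15% fell. At an unadjusted p under 0.05 limma placed 1 lower. After adjustment limma-voom called 0 lower and limma after quantile normalization called 1 lower. TIFY20 (GRMZM2G173596) and TIFY4 (GRMZM2G445634) changed far more than opr7, with log2 differences of 2.23 and 1.74. TIFY30 (GRMZM2G143402) was close to opr7 in size (0.36, SE 0.11, adjusted p = 0.0423, limma), and 11 of 17 alternatives ended its call. The most abundant member, TIFY29 (GRMZM2G036288), had 524.0 ± 27.5 and 521.5 ± 47.6 TPM (SD, n = 3 each; adjusted p = 0.946, limma).

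Counted together and without opr7 and opr8, the lists hold 52 gene models, of which 31 stayed under 1 TPM in every library and 20 were tested. The 52 include the 3 beta-oxidation matches to other enzymes, which were not tested. They also include dad1, matched by symbol alone, which was tested. Of the 20, 7 rose, 2 fell and 11 did not pass, and their median log2 difference was 0.16. Over all tested genes 13.0% rose and 7.15% fell, and the median was 0.04. Outside the TIFY family, 2 of 7 tested genes rose and 2 fell. When lane was a covariate, 4 of the 20 rose and 0 fell (limma), with 2 lower at an unadjusted p under 0.05; in that fit 5.05% of all tested genes rose and 2.54% fell. The 4 that rose in that fit were TIFY20, TIFY4, TIFY28 (GRMZM2G036351) and TIFY24 (GRMZM2G126507), all of the TIFY family. Without control library 1, 4 rose and 1 fell, beside 844 higher and 374 lower of all 8615 tested genes. Without heat library 2 the list gave the same counts, beside 813 higher and 435 lower of all tested genes.

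**Figure D5:**
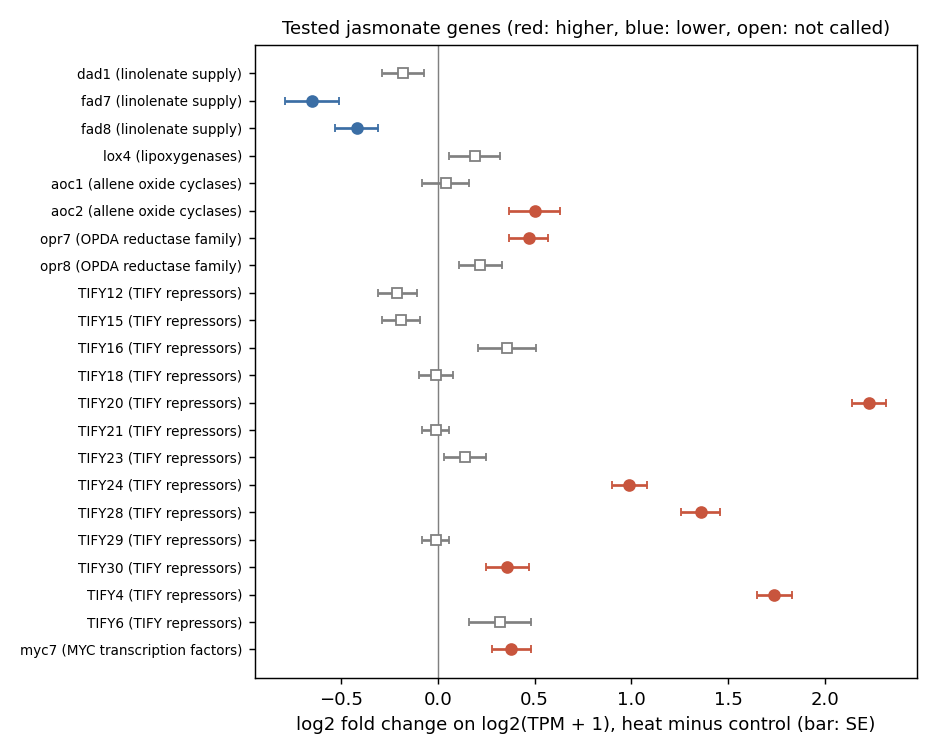
The log2 difference between heat and control, with bars of ± 1 SE, for the 22 tested genes of the jasmonate lists, opr7 and opr8 included, each with the list it belongs to. Red points passed as higher, blue as lower, and open squares did not pass. The change of opr7 (0.47) is close to that of aoc2 (0.50) and well under those of TIFY20 (2.23), TIFY4 (1.74), TIFY28 (1.36) and TIFY24 (0.99).

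Profiles over the 6 libraries were also compared. Likeness was the root mean square difference of log2(TPM + 1) after each gene was centred on its own mean, over 787 tested genes with a name. By this measure the named gene most like opr7 was aoc2, at 0.0506. It was followed by NBP (GRMZM2G011129) at 0.0547, Cullin-4 (GRMZM2G704093) at 0.0629, HAK18 (GRMZM2G086389), of a potassium transporter family, at 0.0679 and DBP4 (GRMZM2G380377) at 0.0801. Genes without a name were often as near: 104 of all tested gene models were nearer to opr7 than DBP4. For opr8 the nearest were mop1 (GRMZM2G042443), an RNA-dependent RNA polymerase gene, at 0.0610, amidase1 (GRMZM2G060400) at 0.0750, Atg8c (GRMZM2G076826), of autophagy, at 0.0769, NIP1-1 (GRMZM2G041980), of the aquaporins, at 0.0783 and BURP9 (GRMZM2G078779) at 0.0807. The distance between opr7 and opr8 was 0.204, which placed opr8 at number 2329 of the 8614 other tested genes by nearness to opr7. With 6 libraries in 2 groups, likeness of this kind mostly reflects the difference between the groups and the noise of each library.

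The libraries had the profile of pollen. The summed level of 11 gene models matching the pollen markers was 44470 to 46677 TPM in control and 44733 to 47340 TPM in heat. Of these, CDPK1 (GRMZM2G314396) was matched by the same name as cdpk1 (GRMZM2G115518), apart from case. It reached at most 0.0747 TPM and was not tested. Another, prf3 (GRMZM5G876285), was matched to more than 1 gene. Of 10 tested, 3 rose, 2 fell and 5 did not pass, beside 13.0% higher and 7.15% lower over all tested genes. The sperm cell gene hap2 (GRMZM2G412911) had 5.78 to 7.47 and 6.88 to 7.99 TPM. The 13 gene models of green tissue summed to at most 0.559 TPM, and 4 of them were at 0 in every library. Of 6 genes of the tapetum and anther wall found by name, 4 matched a gene model, and Ms45 and Ms7 did not. The other planned markers of these cells were not found by name. The 4 gene models summed to 2.66 to 3.37 TPM in control and 4.02 to 4.49 TPM in heat. The higher sum in heat came from 1 gene, and of 2 tested 1 rose, where 13.0% of all tested genes rose. That gene, ms32 (GRMZM2G163233, matched to more than 1 gene), went from 1.62 ± 0.222 to 3.17 ± 0.111 TPM (SD, n = 3 each; log2 difference 0.67, adjusted p = 0.00210, limma). In contrast ms26 (GRMZM2G091822) had 1.25 ± 0.0572 and 0.886 ± 0.262 TPM (SD, n = 3 each; adjusted p = 0.197, limma), and ms23 and ms8 stayed under 1 TPM. The part of such cells in the result for opr7 was not tested, and in bulk pollen fewer cells of a type and less RNA per cell cannot be told apart.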

How the data were processed

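The authors deposited TPM values for 39625 gene models; the submitters' processing notes name Trimmomatic 0.35, FastQC, STAR 2.5.2a, featureCounts, DESeq2 and the build B73 RefGen_v3, with no roles. The strand setting and the treatment of reads with several map positions are not given in the sources used here. Lanes came from the deposited sample sheets. Names came from a RefSeq table of another assembly (release 5.0), which matched 19059 gene models, 521 of them to more than 1 gene, and was used for names alone.

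Gene models that reached 1 TPM in 3 or more of the 6 libraries were tested on log2(TPM + 1), which understates changes of low genes, with limma 3.58.1 in R 4.3.3 (intensity trend, two-sided, Benjamini-Hochberg, threshold 0.05). Single values per library were tested by exact permutation. Whole reads were rebuilt for all 24654 gene models above 0, within 1e-05 reads; a divisor shared by a gene's reads and its length cannot be seen. Both procedures were tested on simulated data. Members and lists were chosen with earlier results of these data known. Named genes were the pair, other opr genes, listed genes of at least 1 TPM in any library, and the 5 named genes most like each member; others named (low lipoxygenases, aos, ts2 and ts5) were chosen after their values were seen. The labels call the libraries biological replicates; no pair within a group was within sampling noise (chi-square per degree of freedom at least 5.24).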

Additional observations from a re-analysis of the deposited data

How the results depend on the processing

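Under 17 alternatives opr7 stayed higher in heat and passed in 16; with the lane as a covariate its log2 difference was 0.48 and did not pass (adjusted p = 0.0695, range over the alternatives 0.0014 to 0.0695). For opr8 none of the 17 passed with limma or limma-voom, and the log2 difference ran from 0.14 to 0.27 (adjusted p from 0.16 to 0.58); the unadjusted p was under 0.05 in 2, without control replicate 2 and without heat replicate 2. Leaving out single libraries gave 0.40 to 0.55 for opr7 and 0.14 to 0.27 for opr8. It gave 0.12 (without control replicate 2) to 0.36 for the log2 ratio of the pair and 0.39 to 0.48 for its log2 sum. The ratio and the sum kept their direction in all 10 of their alternatives. Without the 100 most abundant genes the log2 sum differed by 0.36.

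Over all genes, 1739 passed, against 654 with the lane as a covariate, 994 within the shared lanes (an alternative chosen after seeing the data) and 1218 to 1820 without single libraries. The higher and lower genes numbered 1123 and 616, but 871 and 953 after quantile normalization, under which opr7 was higher by 0.32 (adjusted p = 0.0179). They numbered 900 and 795 without the 100 most abundant genes, where opr7 was higher by 0.42. With the replicate number as a block, 1785 genes passed, and the opr7 and opr8 calls did not change (adjusted p = 0.00434 and 0.241). Deviations of same-numbered libraries correlated at 0.119, 0.130 and -0.0505, so the numbers were not taken as pairs.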
